A study of Mus musculus with 7 samples.

Results

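The genes described here encode the prolactin receptor (Prlr), the growth hormone receptor (Ghr), the shared signal-transducing receptor gp130 (Il6st), the kinases Jak1 and Jak2, the transcription factors Stat3 and Stat5b, and the feedback inhibitors Socs2 and Cish. These 9 genes were taken by symbol from a table of read counts for 24035 genes in FACS-sorted mouse β-cells, as members of the cytokine receptor pathways tied to β-cell growth, and all 9 had enough counts to be tested. The libraries came from C57BL/6NCrl mice (C57BL/6N in the labels) on high-fat diet (HFD) for 2 days (replicates 2, 3 and 4, n = 3) and from mice that stayed on chow diet (CD, replicates 1 to 4, n = 4). The labels name no engineered allele. The study describes the mice of its 2-day feeding as male in one place and gives both sexes in its methods, with feeding from 12 weeks of age, and it told β-cells from α-cells in the sort by a zinc dye (ZIGIR) and a Cy5-labeled exendin-4. It gives the libraries as separate mice. The comparison asks how β-cell transcripts differ early after the change of diet.

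As background, prolactin and growth hormone each bring a pair of their receptor chains together, which activates the kinase JAK2 and, through it, the transcription factors STAT5A and STAT5B. Cytokines of the interleukin-6 family act through gp130, which uses JAK1 above all and mainly activates STAT3. In both arms the STATs switch on genes of the SOCS family, whose products silence the receptor: CISH and SOCS2 act mostly on the STAT5 arm, and SOCS3 binds gp130 itself. In β-cells the prolactin receptor is best known for the growth of islets in pregnancy.

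Cish is a textbook STAT5 target, and its start region shows the kind of element that STAT dimers bind. The motif searched was TTCNNNGAA, which reads the same on both strands in its fixed letters, in windows from 250 bases before to 50 bases after each annotated start (RefSeq, GRCm38.p6). Of the 9 genes, 8 had such a window, 12 windows in all, and 2 windows held a match, which stands in capitals below. The Cish window (chr9:107296409-107296708, plus strand) has 2 matches, at offsets 0 and 11 from the start, and 1 of the 3 Prlr windows (chr15:10223656-10223955, plus strand) has a match at offset −110.
Cish: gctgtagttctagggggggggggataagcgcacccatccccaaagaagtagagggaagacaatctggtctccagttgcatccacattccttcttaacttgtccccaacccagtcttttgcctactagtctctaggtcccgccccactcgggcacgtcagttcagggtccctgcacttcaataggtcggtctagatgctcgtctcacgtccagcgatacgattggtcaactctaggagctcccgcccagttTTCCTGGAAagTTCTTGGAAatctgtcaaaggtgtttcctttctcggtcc
Prlr: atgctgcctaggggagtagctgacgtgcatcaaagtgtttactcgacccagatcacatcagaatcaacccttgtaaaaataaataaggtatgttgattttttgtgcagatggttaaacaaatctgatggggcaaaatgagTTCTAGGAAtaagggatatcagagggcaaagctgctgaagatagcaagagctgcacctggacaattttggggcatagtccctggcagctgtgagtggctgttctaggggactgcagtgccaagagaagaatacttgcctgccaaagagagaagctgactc
Among 32817 such windows of all genes, 8.29% hold at least 1 match and 0.457% hold 2 or more. A match is a run of letters and not a measured binding site.

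The libraries held 10559175 to 14391602 counts on HFD and 11145642 to 22557957 on CD, of which insulin (Ins1 plus Ins2) made up 29.9% to 30.9% in HFD libraries and 27.7% to 29.0% in CD libraries. The library HFD replicate 3 was unlike the rest. A total of 8.55% of the 9443 genes that reached 50 counts in all 6 remaining libraries had no count in it, a share that was at most 0.0118% for any of those 6. Over all 12354 tested genes it was the lowest of the 7 libraries in 43.1% and the lowest of the HFD libraries in 54.6%, and it was the lowest in 6 of the 9 genes here (Il6st, Jak1, Jak2, Stat3, Socs2 and Cish). Its part in the differences was not tested beyond leaving it out, and values without it are given for each of the 9 genes and for the pathway genes with an unadjusted p under 0.05. Summed markers of other cells overlapped between the diets. The sum of 9 macrophage genes, led by C1qa and Cd68, was 30.3 to 49.3 CPM (counts scaled to library size) on HFD and 47.3 to 73.6 on CD (two-sided exact permutation test, p = 0.114). Most of this sum was C1qa, with means of 34.3 CPM on HFD and 50.7 on CD. Only 3 of the 9 genes had enough counts to be tested. The sum of 6 α-cell genes, led by Slc7a2 and Gcg, was 257 to 414 CPM on HFD and 335 to 599 on CD (two-sided exact permutation test, p = 0.171), and those of 8 endothelial genes (led by Esam and Pecam1) and 8 stellate-cell genes (led by Col1a2 and Col1a1) reached at most 7.84 and 2.60 CPM, with 2 and 3 of their genes at 0 in every library. The sum of 6 δ- and PP-cell genes, led by Sst and Ppy, was 549 to 727 CPM on HFD and 502 to 1469 on CD, that of 6 ductal genes, led by Krt7 and Spp1, was 172 to 261 CPM on HFD and 187 to 274 on CD, and that of 10 acinar genes, led by Ctrb1 and Cela2a, was 1.04 to 2376 CPM on HFD and 66.9 to 3155 on CD. The sum of 10 β-cell genes, led by Ins2 and Ins1, was higher in every HFD library, at 321726 to 333115 CPM on HFD and 301399 to 314144 on CD (p = 0.0571 by the same exact permutation test, which can reach no smaller value). It was mostly insulin, with means of 224535 CPM for Ins2 and 77461 for Ins1 on HFD. Of the 10 genes, 6 had a positive and 4 a negative log2 fold change. Every HFD library was above every CD library for 2 of them (4.03% of all tested genes). For 1, Slc30a8, every HFD library was below (5.37% of all tested genes). The part of cell makeup in the results was not tested. In bulk samples fewer cells of a type and less RNA per cell cannot be told apart.

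Expressed per kilobase of the longest annotated transcript, Stat3 was the most abundant of the 9 genes in every library. It had 111 ± 21.7 CPM per kb (SD, n = 3) on HFD and 145 ± 10.7 (SD, n = 4) on CD. Prlr followed at 57.8 ± 8.39 CPM per kb on HFD and 55.8 ± 7.74 on CD. Jak1 had 40.4 ± 3.69 CPM per kb on HFD and 51.5 ± 3.76 on CD, and Ghr had 38.2 ± 5.14 on HFD and 37.4 ± 1.98 on CD. Stat3 was above Prlr, and Ghr above Il6st, with no overlap over the 7 libraries. Prlr was above Jak1 in 7 of 7 libraries and Jak1 above Ghr in 6 of 7, with overlapping ranges. Il6st was above Stat5b in 4 of 7 libraries, so this length gave the pair no order, while with the mean transcript length Il6st was above in 6 of 7. Jak2, Cish and Socs2 closed the order at 6.97 ± 4.68, 6.13 ± 0.828 and 4.33 ± 2.80 CPM per kb on HFD, against 11.5 ± 3.07, 8.32 ± 3.11 and 4.96 ± 0.596 on CD. The kinase Jak2, on which both hormone receptors depend, was thus the scarcer of the JAK pair, with 11.5 against 51.5 CPM per kb for Jak1 on CD.

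**Figure D1:**
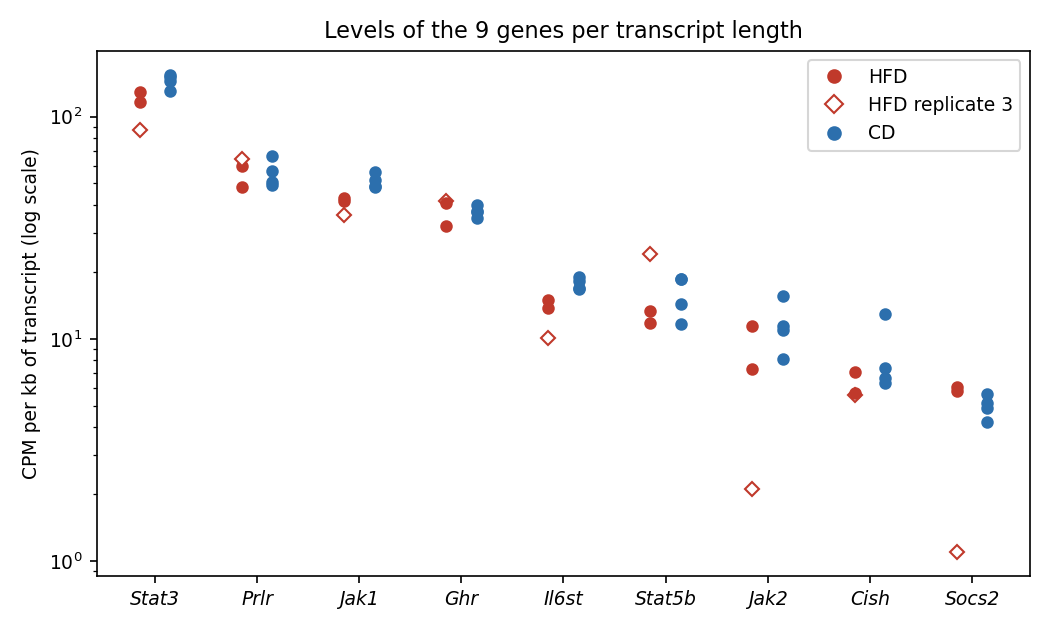
CPM per kb of the longest annotated transcript (log axis) for the 9 genes, ordered by their mean on CD; points are libraries, with HFD left of CD for each gene. Stat3 lies highest in every library, and the open diamonds of HFD replicate 3 lie far below the other libraries for Jak2 and Socs2.

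The receptors of the prolactin and growth hormone arm overlapped between the diets. Prlr (chr15:10177238-10349180), which binds prolactin and placental lactogens, had 595, 641 and 479.6 CPM on HFD (replicates 2, 3 and 4), against 656, 501, 565 and 489 CPM on CD (replicates 1 to 4). The groups overlapped over nearly their whole range, and the log2 fold change was 0.05 (95% interval −0.26 to 0.36), or −0.06 without HFD replicate 3. Ghr (chr15:3317760-3583492), the growth hormone receptor, had 135, 174 and 169.8 CPM on HFD and 157, 146, 166 and 156 CPM on CD. The HFD libraries lay on either side of the CD range, and the log2 fold change was 0.03 (95% interval −0.25 to 0.31), or −0.05 without HFD replicate 3. For both receptors a shift within these intervals was not detectable here. The counts are per gene and do not separate the long and short forms of Prlr.

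Il6st, Jak1 and Stat3, which form the gp130 arm, lay below the CD range in all 3 HFD libraries. Il6st (chr13:112464070-112510086), which encodes gp130, had 130.2, 87.1 and 119 CPM on HFD, against 158, 165, 147 and 146 CPM on CD. Every HFD library was below every CD library, with HFD replicate 3 the lowest. The log2 fold change was −0.46 (standard error 0.15, 95% interval −0.80 to −0.12), an unadjusted p of 0.0140 and an adjusted p of 0.817 by edgeR's quasi-likelihood test. Without HFD replicate 3 it was −0.32 (unadjusted p = 0.0318 by the same edgeR test).

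Jak1 (chr4:101152367-101265282), the kinase bound to gp130 and to many interferon and interleukin receptors, had 205, 178 and 212 CPM on HFD, against 255, 240.2, 278 and 237 CPM on CD. The groups again did not overlap, and the spread within each was small. On the log2 scale the fold change was −0.35 (standard error 0.11, 95% interval −0.60 to −0.09), with an unadjusted p of 0.0123 and an adjusted p of 0.817 by edgeR's quasi-likelihood test, and −0.29 without HFD replicate 3 (unadjusted p = 0.0403 by the same edgeR test).

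Stat3 (chr11:100885098-100939540), the transcription factor that gp130 activates, had 783.6, 526 and 701 CPM on HFD, against 907, 871, 785.5 and 934 CPM on CD. HFD replicate 2 and CD replicate 3 were nearly equal, so the groups were separate by a narrow margin. The log2 fold change was −0.38 (standard error 0.13, 95% interval −0.69 to −0.08), with an unadjusted p of 0.0186 and an adjusted p of 0.817 by edgeR's quasi-likelihood test, and −0.25 without HFD replicate 3 (unadjusted p = 0.0258 by the same edgeR test).

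Of the 9 genes, 0 passed an adjusted p of 0.05 by edgeR's quasi-likelihood test, as did 0 of all 12354 tested genes (0% called), and 0 of the 9 passed by DESeq2 or limma-voom. In simulated data the fit called 0 of 50 genes at a true log2 fold change of −1 and 0 of 50 at 1. A count of 0 therefore cannot exclude shifts of the size seen here. At an unadjusted p under 0.05 by edgeR's quasi-likelihood test, 3 of the 9 were lower on HFD, against 2.91% of all tested genes, and 0 were higher, against 2.86% (5.77% in either direction). The same 3 genes were those with every HFD library below every CD library, which was so for 5.37% of all tested genes, and 0 of the 9 had every HFD library above, against 4.03%. Without HFD replicate 3 these 3 were again the ones lower at an unadjusted p under 0.05, against 3.82% of tested genes lower and 2.99% higher. Their unadjusted p stayed under 0.05 with each library left out in turn and with every other setting tried, except that Jak1 had 0.0540 with the replicate number as a block. The genes were chosen with earlier results of these data known, and Il6st is in the gene list that the study drew from these libraries, so the counts are a description.

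**Figure D2:**
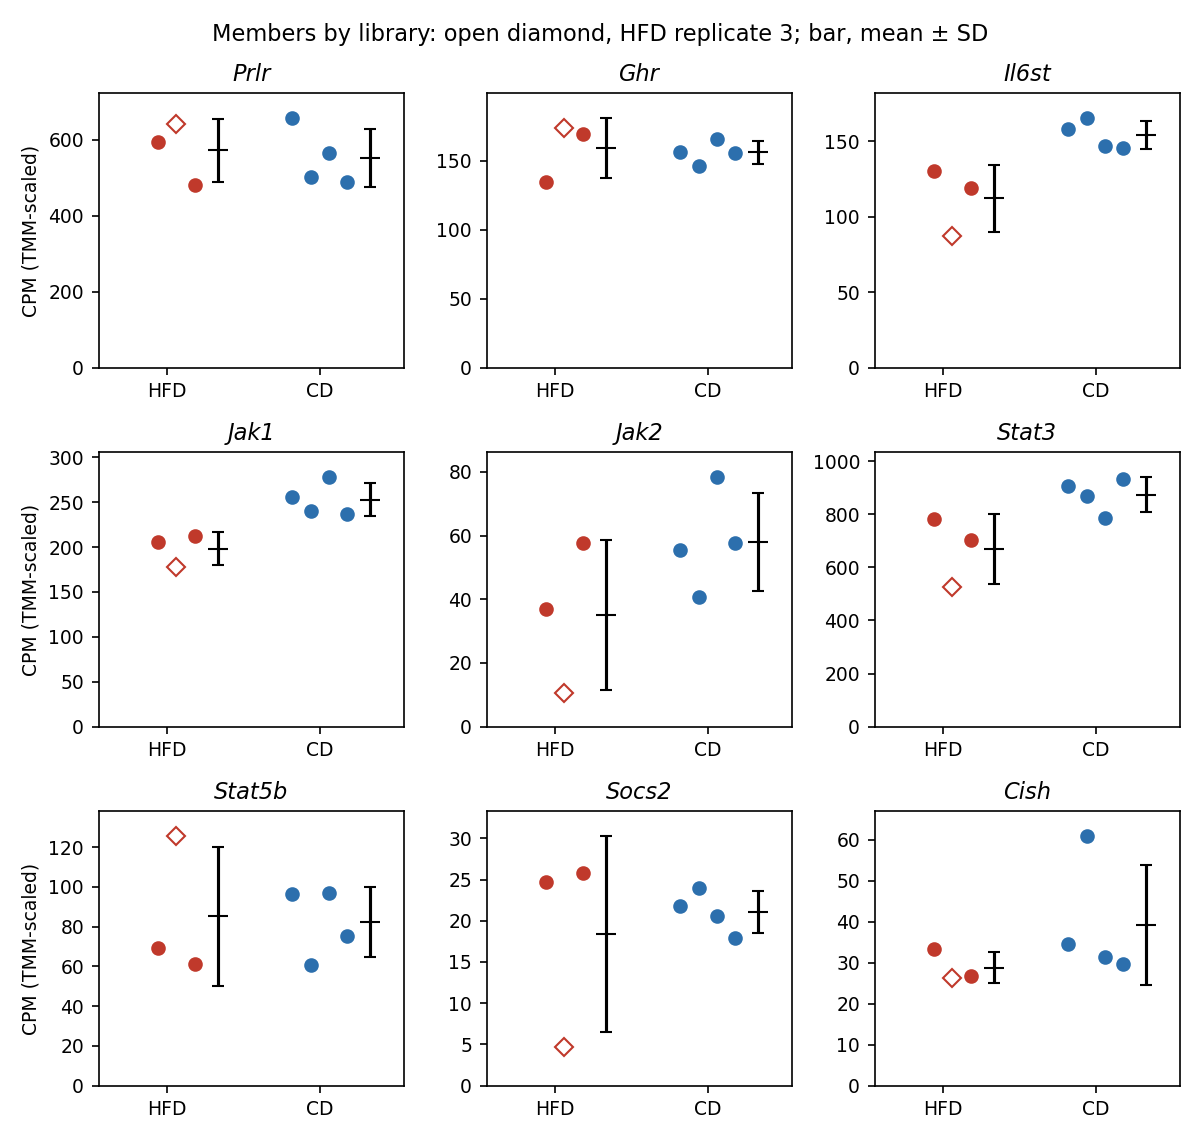
TMM-scaled CPM of each of the 9 genes by library, HFD left and CD right, with the mean ± SD beside the points and HFD replicate 3 as an open diamond. Every HFD point lies below every CD point for Il6st, Jak1 and Stat3, while Prlr and Ghr overlap and Jak2 and Socs2 have 1 very low HFD library.

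Whether gp130 and the hormone receptors differed in their response was tested on their ratio within a library, which needs no scaling. This comparison was chosen after the values were seen. The ratio of Il6st to Prlr counts was 0.219, 0.136 and 0.248 on HFD, against 0.241, 0.3298, 0.26 and 0.298 on CD. HFD replicate 4 lay above CD replicate 1, so the groups overlapped, and the mean log2 ratio differed by −0.52 (two-sided exact permutation test over 35 divisions, p = 0.114, and adjusted p = 0.457 over 6 ratios, where the smallest p that 3 against 4 allows is 0.0571). The difference was −0.26 without HFD replicate 3. For Il6st to Ghr the difference was −0.50 (two-sided exact permutation test, p = 0.171, adjusted p = 0.457), and −0.26 without HFD replicate 3. For Stat3 to Stat5b it was −0.40 (two-sided exact permutation test, p = 0.514, adjusted p = 0.617), and it turned to 0.075 without HFD replicate 3. Jak1 to Jak2 went the other way, at 0.65 (same permutation test, p = 0.457, adjusted p = 0.617), and was at 0.020 without HFD replicate 3. Socs3 to Socs2 was at −0.15 (same permutation test, p = 0.971), and at −0.96 without HFD replicate 3. Socs3 to Cish was at −0.30 (same permutation test, p = 0.229), and at −0.37 without HFD replicate 3. With 3 against 4 libraries this test cannot pass 0.05, so it leaves a difference between the arms undecided.

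Jak2, Stat5b, Socs2 and Cish, which act after the hormone receptors, overlapped between the diets. Jak2 (chr19:29251828-29313080) had 36.9, 10.6 and 57.6 CPM on HFD, against 55.4, 40.8, 78.3 and 57.7 CPM on CD. HFD replicate 3 was far below the others, with 116 counts where HFD replicates 2 and 4 had 500 and 830. The fitted log2 fold change was −0.73 (95% interval −1.77 to 0.32, unadjusted p = 0.151 by edgeR's quasi-likelihood test), or −0.31 without HFD replicate 3 and −1.31 without HFD replicate 4 (unadjusted p = 0.0284 by the same edgeR test).

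Stat5b (chr11:100780731-100850724) was highest in that same library, at 125 CPM in HFD replicate 3, beside 69.3 and 61.3 CPM in HFD replicates 2 and 4, against 96.4, 60.8, 96.7 and 75.1 CPM on CD. Its log2 fold change was 0.05 (95% interval −0.55 to 0.65) and turned to −0.35 without HFD replicate 3 and to −0.08 without CD replicate 2. Of the 50-base runs in the longest Stat5b transcript, 11.8% also occur in Stat5a, its close paralog, and reads from those stretches cannot be told apart. Stat5a itself averaged 12.8 ± 1.82 CPM on HFD (SD, n = 3) and 13.1 ± 3.57 CPM on CD (SD, n = 4), a log2 fold change of −0.03.

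Socs2 (chr10:95385362-95417180), a SOCS protein that restrains growth hormone signaling, had 24.7, 4.67 and 25.7 CPM on HFD, against 21.8, 23.9, 20.6 and 17.9 CPM on CD. HFD replicates 2 and 4 were above every CD library and HFD replicate 3, with 51 counts, was far below. The log2 fold change was −0.20 (95% interval −1.33 to 0.94) with that library and 0.25 without it. Of its 50-base runs, 7.23% occur in Gm8000 or Gm9847, so part of its reads could be assigned to these copies.

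Cish (chr9:107296026-107302784), the STAT5 target whose start region is shown above, had 33.3, 26.4 and 26.8 CPM on HFD, against 34.6, 60.8, 31.3 and 29.6 CPM on CD. CD replicate 2 was high and the other CD libraries were close to the HFD range, with HFD replicates 3 and 4 below all of them. Its log2 fold change was −0.44 (95% interval −1.08 to 0.20, unadjusted p = 0.156 by edgeR's quasi-likelihood test) with −0.39 without HFD replicate 3 and −0.16 without CD replicate 2. For neither Socs2 nor Cish was a difference beyond the spread between mice detected.

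**Figure D3:**
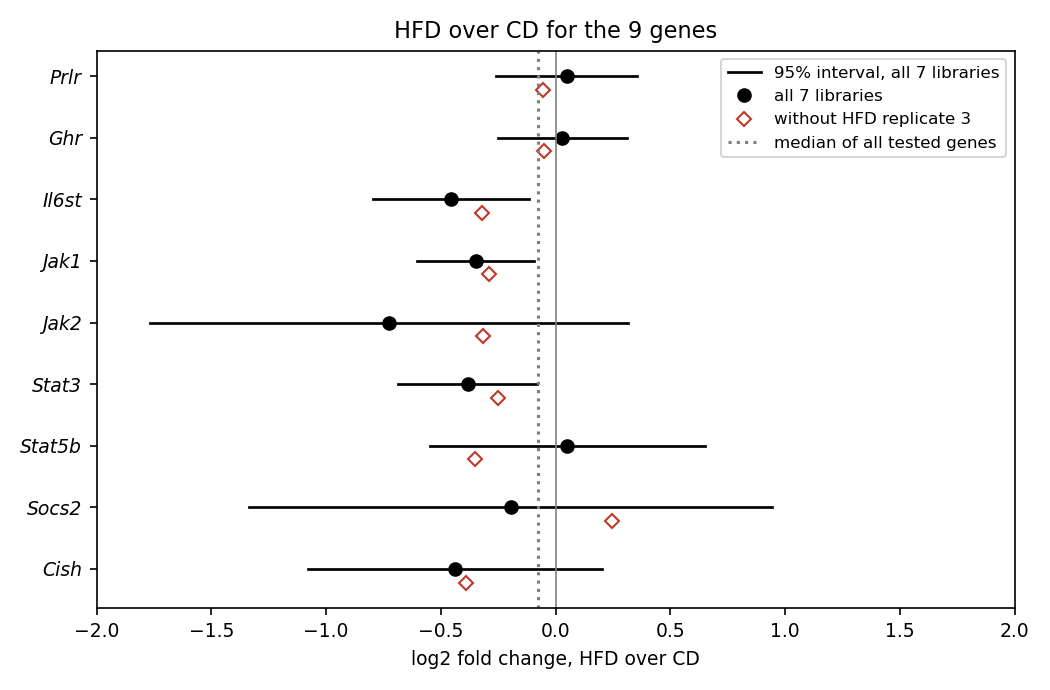
Log2 fold change of HFD over CD with its 95% interval from edgeR for the 9 genes (black, all 7 libraries), and the value without HFD replicate 3 (open diamonds). The intervals of Il6st, Jak1 and Stat3 end below 0, while Prlr, Ghr, Stat5b and Socs2 change side without that library.

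Other genes of the pathway were read from lists. The ligands were close to absent: Prl, Gh, Il6, Osm, Lep, Epo and Tslp had 0 counts in every library, and of 12 ligand genes 1, Ctf1, had enough counts to be tested. Ctf1, which encodes cardiotrophin-1, had 1.48, 0 and 2.22 CPM on HFD, against 2.52, 3.12, 1.70 and 4.82 CPM on CD. Of 20 other receptors of the class, 12 were tested, of which 4 lay above 0 and 8 lay below. Their median was −0.26 on the log2 scale, beside −0.08 over all tested genes. At an unadjusted p under 0.05, 1 of the 12 was lower and 0 were higher, beside 2.91% and 2.86% of all tested genes. This was Il13ra1, a receptor chain for interleukin-13, with 39.0, 22.9 and 36.9 CPM on HFD, against 44.0, 54.7, 52.6 and 44.2 CPM on CD (log2 fold change −0.57, unadjusted p = 0.0289, adjusted p = 0.833 by edgeR's quasi-likelihood test, and −0.38 with unadjusted p = 0.0594 without HFD replicate 3, 0.0677 without CD replicate 2 and 0.06 without CD replicate 3).

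The partner chains of gp130 were also present in the sorted cells. Il6ra, which binds interleukin-6, had 88.3, 69.7 and 85.4 CPM on HFD, against 95.8, 78.0, 130.8 and 93.5 CPM on CD (log2 fold change −0.30). Lifr, which pairs with gp130 for LIF, had 74.8, 40.4 and 77.7 CPM on HFD, against 87.2, 80.3, 90.6 and 71.1 CPM on CD (log2 fold change −0.36). Cntfr, the chain for ciliary neurotrophic factor, was at −0.23. Each of these 3 overlapped between the diets, and none had an unadjusted p under 0.05. Il4ra, a chain of the interleukin-4 receptor, was at −0.85 with overlapping groups. Osmr, the oncostatin M chain, had at most 9 counts in a library, and Lepr, the leptin receptor, had 0 counts in every library.

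Of 7 other JAK and STAT genes, 6 were tested and all 6 were below 0, beside 57.9% of all tested genes. Their median was −0.37, or −0.26 without HFD replicate 3. At an unadjusted p under 0.05, 2 of the 6 were lower, beside 2.91% of all tested genes. Without HFD replicate 3 the count was 1, beside 3.82%. Jak3, the kinase of receptors with the common γ chain, had 10.8, 8.88 and 16.4 CPM on HFD, against 16.9, 22.6, 25.7 and 37.2 CPM on CD. The groups were separate by a narrow margin, with a log2 fold change of −1.09 (standard error 0.37, unadjusted p = 0.0167, adjusted p = 0.817 by edgeR's quasi-likelihood test). Without HFD replicate 3 it was −0.92, and the unadjusted edgeR p was 0.0735 without CD replicate 4 and 0.0518 without HFD replicate 2. Stat2, which carries interferon signals, had 52.9, 16.9 and 38.9 CPM on HFD, against 48.7, 79.4, 111.6 and 50.1 CPM on CD, with HFD replicate 2 inside the CD range. It averaged 36.2 ± 18.1 CPM on HFD (SD, n = 3) and 72.5 ± 29.7 CPM on CD (SD, n = 4; unadjusted p = 0.0356 by edgeR's quasi-likelihood test, 0.0549 without HFD replicate 3, 0.0702 without HFD replicate 4, 0.0736 without CD replicate 2 and 0.112 without CD replicate 3). Stat6 and Tyk2 were at −0.34 and −0.26, both with overlapping groups.

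Of 15 other feedback and brake genes, 14 were tested, and 8 had a positive and 6 a negative log2 fold change (median 0.05, or −0.03 without HFD replicate 3). At an unadjusted p under 0.05, 2 of the 14 were lower and 1 was higher, beside 2.91% and 2.86% of all tested genes. Socs3, the SOCS protein that silences gp130, had 79.5, 69.8 and 59.9 CPM on HFD, against 125, 139, 112.5 and 79.3 CPM on CD. HFD replicate 2 was just above CD replicate 4, and every other HFD library was below the CD range. The log2 fold change was −0.71 (standard error 0.20, unadjusted p = 0.00597, adjusted p = 0.731 by edgeR's quasi-likelihood test) and −0.73 without HFD replicate 3. DESeq2 called it over all genes (adjusted p = 0.0367), while none of the 9 genes reached that. The tyrosine phosphatase gene Ptpn1, whose product removes phosphate from JAK kinases, was at −0.54 (unadjusted p = 0.0215 by edgeR's quasi-likelihood test), at −0.51 without HFD replicate 3, at −0.36 without CD replicate 3, and with an unadjusted p of 0.0711 without HFD replicate 2. Pias3, named as an inhibitor of STAT3, had 38.2, 52.1 and 31.9 CPM on HFD, against 26.3, 28.6, 22.1 and 27.6 CPM on CD, a log2 fold change of 0.64 (unadjusted p = 0.0197 by edgeR's quasi-likelihood test), and 0.41 without HFD replicate 3 (unadjusted p = 0.0662). Socs7 was at 0.26, with its highest value in HFD replicate 3.

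Genes known to respond to STAT3 were mostly below 0, while those known to respond to prolactin or STAT5 in islets went both ways. Of 13 tested STAT3 response genes, 12 were below 0, beside 57.9% of all tested genes, and the median was −0.48, or −0.35 without HFD replicate 3. That library was the lowest of the 7 for most of the 13, beside 43.1% of all tested genes. Icam1, Pim1 and Myc had 0 CPM in it. At an unadjusted p under 0.05, 3 of the 13 were lower, beside 2.91% of all tested genes. The count was 5 without HFD replicate 3, beside 3.82% of all tested genes. It was 6 without HFD replicate 2, beside 416 of 12532, and 2 without HFD replicate 4, beside 717 of 12581. The 3 with all libraries were Nfkbiz, Cebpd and Socs3, which is also counted among the feedback and brake genes above. Nfkbiz, a nuclear regulator of NF-κB, had 52.5, 16.7 and 48.4 CPM on HFD, against 91.4, 123.5, 97.6 and 76.1 CPM on CD, with no overlap (log2 fold change −1.31, standard error 0.35, unadjusted p = 0.00467, adjusted p = 0.731 by edgeR's quasi-likelihood test, and DESeq2 adjusted p = 0.00517), and was at −0.96 without HFD replicate 3. Cebpd, a transcription factor of the acute phase response, was at −1.55 (unadjusted p = 0.0149 by edgeR's quasi-likelihood test), and at −1.29 without HFD replicate 3. Its groups overlapped, with HFD replicate 2 at 31.0 CPM above CD replicate 1 at 27.9 CPM. CD replicate 3 was high, at 113.5 CPM, and without it Cebpd was at −1.002, while without HFD replicate 4 its unadjusted edgeR p was 0.0530. Fos and Junb, which are also immediate early genes, were at −0.48 and −0.51 with overlapping groups. Several of these genes answer to NF-κB as well as to STAT3. Socs3, Nfkbiz, Cebpd, Ptpn1 and Stat2 are in the study's gene list, which was drawn from these libraries and is not independent evidence of a direction.

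The 16 tested prolactin and STAT5 response genes split evenly, 8 with a positive and 8 with a negative log2 fold change (median −0.02, or 0.10 without HFD replicate 3). Ccnd2, the cyclin D gene that prolactin raises in β-cells, had 768, 804 and 917 CPM on HFD, against 734, 697, 854 and 788 CPM on CD, a log2 fold change of 0.11 with overlapping groups. Bcl6, a transcriptional repressor, was at −0.57, and Men1, which encodes the growth brake menin, was at 0.46. Both overlapped between the diets (unadjusted p = 0.304 and 0.0687 by edgeR's quasi-likelihood test), and HFD replicate 3 stood apart. Bcl6 had 15.9, 3.66 and 12.1 CPM on HFD and 11.7 to 21.8 on CD. Men1 had 47.7, 77.7 and 48.7 CPM on HFD and 36.4 to 53.0 on CD. Tph2 had at most 3.04 CPM, and Tph1, the serotonin enzyme that rises strongly in pregnant islets, had at most 4 counts in a library. At an unadjusted p under 0.05, 1 of the 16 was higher and 0 were lower, beside 2.86% and 2.91% of all tested genes. This was Foxm1, a transcription factor of the cell cycle, with 9.89, 8.15 and 11.8 CPM on HFD, against 2.77, 3.21, 3.54 and 3.83 CPM on CD. On the log2 scale the fold change was 1.57 (unadjusted p = 0.0168, adjusted p = 0.817 by edgeR's quasi-likelihood test), with 1.68 without HFD replicate 3 and an unadjusted p of 0.0738 without HFD replicate 4. Birc5, a mitotic gene, was at 2.51 and also had every HFD library above every CD library. Both belong to the cell-division genes as much as to this list.

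**Figure D4:**
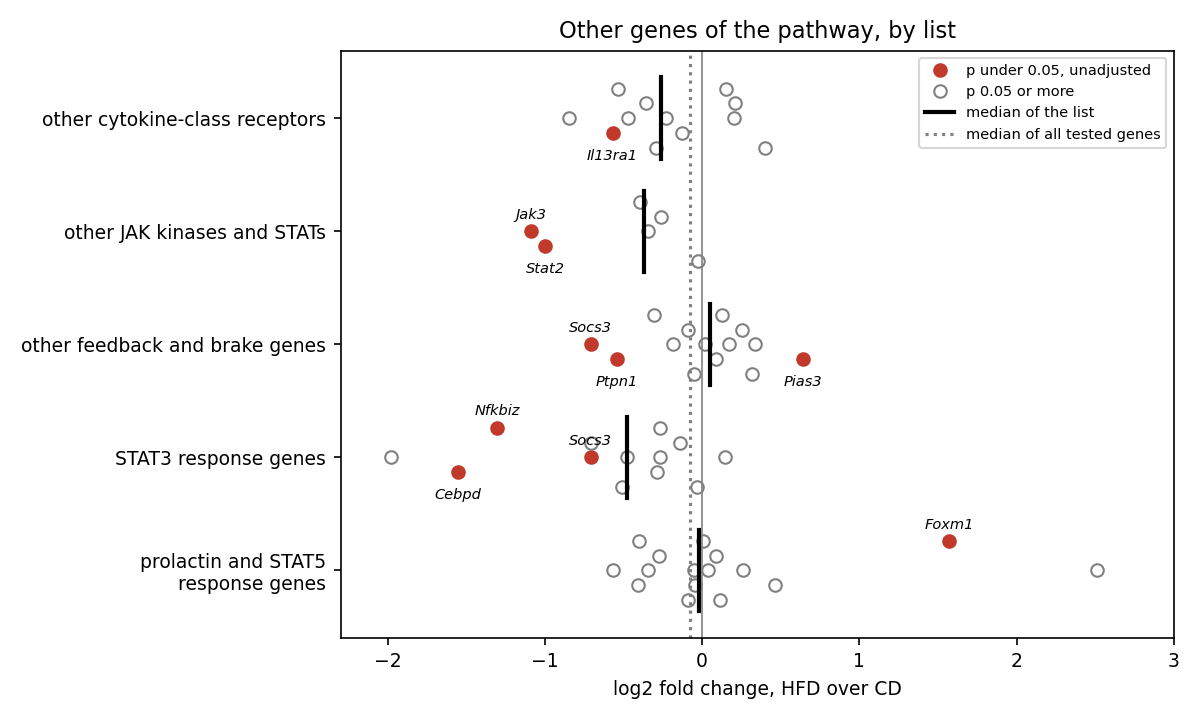
Log2 fold change of HFD over CD for each tested gene of 5 lists; filled points have an unadjusted p under 0.05, black bars are list medians and the dotted line is the median of all tested genes. The list medians run from −0.48 for STAT3 response genes to 0.05 for feedback and brake genes.

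The 9 genes were also compared by their pattern over the libraries. Using the root mean square difference of log2 CPM as the measure, each gene centred on its own mean, over the 7 libraries, Il6st and Stat3 were the closest pair of the 9 (0.0926), followed by Il6st and Jak1 (0.155), Jak1 and Stat3 (0.167), and Prlr and Ghr (0.209). Among 9962 other genes with a mean of at least 5 CPM, the nearest to Il6st was Wnt4, at 0.0190 over 7 libraries and 0.0200 without HFD replicate 3, in first place both times. Wnt4, which encodes a secreted WNT ligand, had a log2 fold change of −0.47. The next was Gnai2 at 0.0752, which took place 52 without HFD replicate 3. The 2 nearest genes were Impact and Avl9 for Jak1, A330076H08Rik and Cacna1c for Stat3, Appl1 and Zfp131 for Prlr, and Lrrn1 and Tmod2 for Ghr. They were 3110002H16Rik and Gon4l for Jak2, Fam115a and Dsg2 for Stat5b, Wdr45b and Hspa13 for Socs2, and Wdr44 and Rabep2 for Cish. These orders rest on 7 points each, and of the 10 nearest genes of each of the 9, at most 3 were shared when HFD replicate 3 was left out.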

How the data were processed

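Poly(A) RNA of β-cells sorted from 3 HFD and 4 CD mice was sequenced with a stranded kit on a NextSeq 500. The authors deposited raw read counts per gene symbol. The submitters' notes name mm10 and edgeR, and the study's methods speak of TPM values, which were not used. The aligner, the counting program and whether strand was used were not given in the sources used here. Of 24062 rows, 27 hold a date in place of a symbol (at most 0.155% of a library's counts) and were left out. Stat3 shares exon bases with Stat5a on the other strand, and Cish with antisense transcripts.

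R 4.3.3 with edgeR 4.0.16, limma 3.58.1 and DESeq2 1.42.0, and Python with scipy 1.17.1 were used. Genes passed filterByExpr (12354), libraries were scaled by TMM, and glmQLFTest compared HFD with CD without covariates, with Benjamini-Hochberg adjustment over all tested genes. CPM values are TMM-scaled, marker sums use library totals, and intervals are at 95%. The fit was tested on simulated data, with 50 genes set at each true log2 fold change and the same relative spread for every gene. It called 5 of 50 genes at −2 and 12 of 50 at 2. At −1 it called 0 of 50 and at 1 also 0 of 50, with 0 false calls. A lack of calls therefore cannot exclude shifts of −1 or 1, or smaller ones, in a gene of that spread. Genes with a smaller spread were not simulated. Positions, which count from 1, and transcript lengths come from GENCODE M21 (GRCm38, the assembly of mm10).

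The 9 genes and the lists were chosen with earlier results of these data known. Named were the 9 genes, up to 4 genes of lowest p per pathway list, the nearest patterns, and the most abundant markers. Cntfr, Stat5a, Tyk2, Tph1, Tph2, Ccnd2, Osmr, Lepr, the undetected ligands and Junb fall outside that rule and were picked with their values known, like the ratios, and 1 gene that the rule names is not reported here. Alternatives were other scaling, filters and tests, each library left out, and a replicate block.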

Additional observations from a re-analysis of the deposited data

Results flagged for a closer look

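In CD replicate 2, Cish stood at 60.8 CPM while the other CD libraries had 29.6 to 34.6 CPM. The gap to the next library was 0.839 of the whole range of the 4 CD libraries, above the critical value of Dixon's test at 95%, which flags about 1 in 20 groups by chance. This was the only such library among the 9 genes in the CD group, and the 3 HFD libraries are too few for this test.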

How the results depend on the processing

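The log2 fold changes of Il6st, Jak1, Jak2, Stat3 and Cish stayed below 0 under all 17 alternatives, and none of the 9 genes passed an adjusted p of 0.05 under any of them. With each library left out in turn, Il6st ran from −0.58 to −0.32, Jak1 from −0.42 to −0.29, Stat3 from −0.52 to −0.25, Jak2 from −1.31 to −0.31 and Cish from −0.56 to −0.16. Near 0 the direction turned: with a library left out Prlr ran from −0.057 to 0.14, Ghr from −0.051 to 0.13, Stat5b from −0.35 to 0.23 and Socs2 from −0.54 to 0.25. With limma-voom Stat5b was at −0.066, and with limma-voom and library quality weights, chosen after seeing the data, Prlr, Ghr, Stat5b and Socs2 were at −0.043, −0.031, −0.30 and 0.27. The cause was not tested.

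At an adjusted p of 0.05 the counts over all genes, against 0 (713 at an unadjusted p under 0.05), were 4 with at least 1 CPM required in every library, 23 by the likelihood ratio test, 137 by DESeq2 and 27 with quality weights, and 0 to 2 with a library left out (2 without HFD replicate 3). At an unadjusted p under 0.05 they were 1319 by DESeq2, 1113 with quality weights and 474 (without CD replicate 1) to 1119 (without HFD replicate 4). With the replicate block 375 genes had an unadjusted p under 0.05. Same-numbered libraries correlated at 0.0253, 0.00424 and 0.0816 in their deviations from the group means. Libraries with different numbers ran from −0.0567 to 0.0215. So few pairs cannot decide whether a shared number pairs the mice, and the labels do not say. With upper-quartile factors, 420 genes were higher and 283 lower at an unadjusted p under 0.05, against 353 and 360.

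With a library left out, the HFD minus CD difference of the marker sums ran from −561 to 756 CPM for acinar, −21.7 to 22.7 for ductal, −0.38 to 1.79 for endothelial and −0.65 to 0.29 for stellate-cell genes. With the mean transcript length the levels per kb moved (Stat3 had 518 CPM per kb on CD in place of 145), Jak2 was last in place of Socs2, and Jak1 was above Ghr in 7 of 7 libraries. The lowest counts behind a value of the 9 genes were 51 for Socs2 and 116 for Jak2, both in HFD replicate 3.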
